A study of Mus musculus with 21 samples.

Results

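The serpins outside the Serpina3 group were followed through 7 groups of mouse liver cells, from freshly isolated hepatocytes to late-passage cultured progenitors. The members were all array probes whose gene name begins with Serpin, a clade letter from a to i and a number, without those beginning with Serpina3. They came to 72 of 56605 probes and 53 of 37074 gene names, and 15 Serpina3 probes were left out. The 53 genes were taken in 3 classes: 14 liver plasma serpins (20 probes), 27 clade B serpins, which are intracellular (34 probes), and 12 other extracellular and tissue serpins (18 probes).

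The cells came from female C57BL/6 mice, whose ages the labels do not give, and each group had 3 arrays. CLiPs, chemically induced liver progenitors, are hepatocytes turned in culture into dividing progenitor-like cells. The groups were fresh hepatocytes, then CLiPs of passage 1 (P1) on day 0, after 8 days without hepatic induction (P1 uninduced) and after 8 days with it (P1 induced), and the same 3 states at passage 12, or 11 for replicate 3 (late). Induction means culture with oncostatin M, a cytokine, and dexamethasone, a synthetic glucocorticoid. The labels name no engineered allele, and how many mice or cultures stand behind the 3 arrays of a group is not given there.

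Serpins are a family of proteins with a shared fold and an exposed loop. Inhibitory members offer that loop to a serine or cysteine protease as bait, and cleavage traps the enzyme and the serpin in a covalent complex. Hepatocytes secrete most of the serpins of blood plasma, which hold clotting, fibrinolysis, complement and neutrophil enzymes in check or carry hormones. Clade B serpins lack a classical secretion signal and act mostly inside cells, against granule and lysosomal proteases.

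Levels below are on the log2 scale, as log2 of a probe's signal minus that array's 75th percentile, so that 0 is the 75th percentile and levels of different probes are not compared. Each gene was read from the probe with the highest mean. A gene was tested where its probe was well above background on all 3 arrays of at least 1 group, and a change was called where limma's adjusted p was under 0.05 and the change at least 2-fold. A gene that lay well above background on no array of a group has only a bound there, and its change is written as "at least". In the fresh and P1 arrays 35 of the 53 genes were tested, in the late arrays 34, and 13 genes were well above background on no array at all. In this bulk RNA, fewer cells of a type and less RNA per cell cannot be told apart.

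The 75th percentile of signal ran from 291 to 332 on the fresh arrays, from 466 to 789 on the P1 arrays and from 881 to 1241 on the late arrays, and the share of probes well above background was 46.1% to 60.5%. The late arrays came from another scanner and software version, so their levels are set beside the others without a test. Each fresh array lay on a slide of its own, apart from the P1 slides, so that slide and cell state cannot be told apart between fresh and P1. All 12 hepatocyte markers were well above background in the fresh hepatocytes, where their summed linear level was 4799 to 5704, against 365 to 516 at P1 day 0 and 12.0 to 33.6 at late day 0. Of 12 Kupffer cell markers, 11 were above background on every fresh array and 3 on every P1 day 0 array, and of 9 endothelial markers 8 and 3. The part of these markers in the serpin changes was not tested.

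The plasma serpins fell as hepatocytes became P1 CLiPs, while the clade B serpins split. At P1 day 0 all 14 plasma serpins were lower than in fresh hepatocytes and none was higher, with a median log2 change of -3.06. With quantile normalization 9 were called lower. Of the 14 tested clade B serpins 6 rose and 6 fell, with a median of 0.11, or 0.52 with dim genes at their bound. Among those that fell, Serpinb9e and Serpinb9f were above background on 1 of 3 fresh arrays and on no P1 day 0 array, so the size of their fall is not given. With signal asked for on all arrays of every group 3 clade B serpins rose and 1 fell. Of the 7 tested other serpins 4 rose and 2 fell. Over all 20631 tested genes 25.4% were called higher and 25.2% lower, or 50.6% in either direction, and their median change was -0.0097.

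A further 8 days without induction were followed by more plasma serpin calls in late than in P1 CLiPs. Of the plasma serpins 4 of 14 rose in P1 CLiPs, Serpina7, Serpinc1, Serpinf1 and Serping1, and of the clade B serpins 6 of 14, where 11.1% of all tested genes were called (6.28% higher and 4.86% lower). In late CLiPs 9 of 13 plasma serpins and 5 of 14 clade B serpins rose, where 14.6% of all tested genes were called (8.19% higher). The median change of the plasma serpins was -0.02 at P1 and 1.53 in late CLiPs. Serpina1a to Serpina1e are 5 of the 9 late calls, and the late median is the value of Serpina1b. Their probes are much alike, so these 5 are not independent of each other.

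Induction raised plasma serpins in both passages. In P1 CLiPs 7 of 14 rose and none fell against the uninduced cells, with a median of 2.13 (2.70 with dim genes at their bound), where 18.7% of all tested genes were called (9.68% higher). In late CLiPs 5 of 13 rose, Serpina7, Serpina10, Serpina11, Serpinc1 and Serping1, with a median of 0.47, where 5.99% of all tested genes were called (2.94% higher). Clade B had 3 higher and 2 lower of 14 at P1, where 9.02% of all tested genes were lower, and 1 lower of 14, Serpinb9c, in late CLiPs, where 3.06% were lower. Every called plasma, clade B and other serpin change kept its sign within each slide that held both groups, in the P1 and the late comparisons alike.

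**Figure D1:**
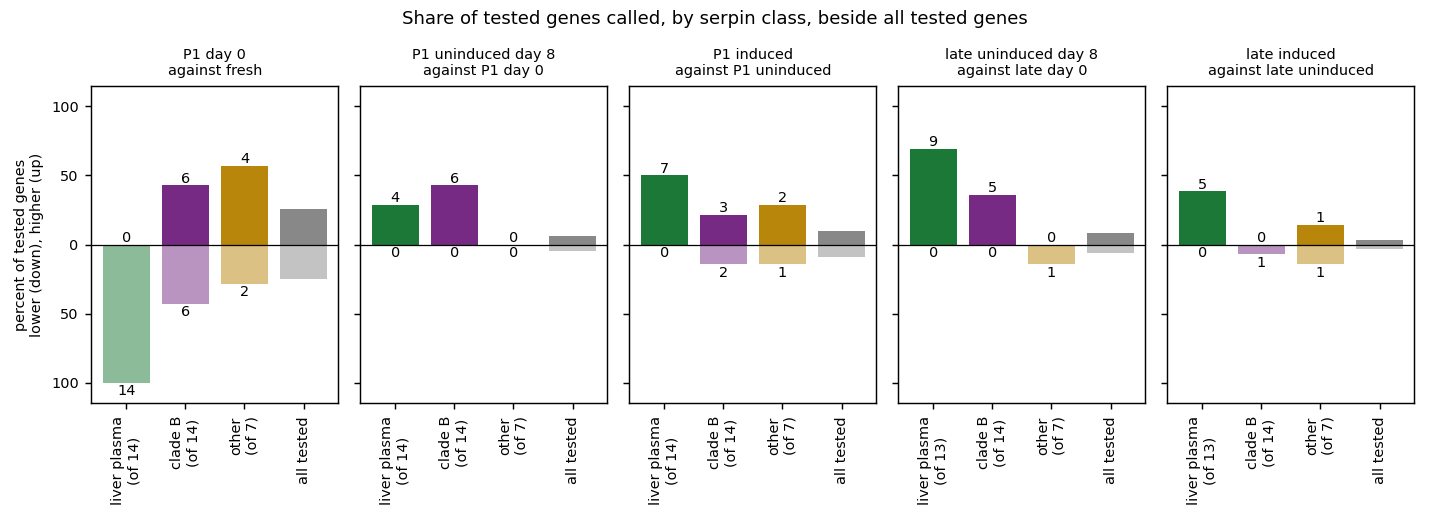
Percent of tested genes called higher (full colour) and lower (paler) in each serpin class and over all tested genes, by comparison, with the counts written at the bars. All 14 tested plasma serpins lie on the lower side in P1 day 0 against fresh, while 25.2% of all tested genes do.

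The 5 alpha-1-antitrypsin paralogs, Serpina1a to Serpina1e, are the mouse forms of the main plasma inhibitor of neutrophil elastase, and lie side by side on chromosome 12. Their array probes are much alike, so the first 30 shared bases of the probes that read Serpina1a, Serpina1c and Serpina1e are shown here, with the positions that differ among the 3 in capitals. They lie on the minus strand of mm9 at Serpina1c chr12:105133186-105133215, Serpina1a chr12:105091849-105091878 and Serpina1e chr12:105185192-105185221. Whether they lie in a coding exon or a UTR was not analysed here.
Serpina1c: taaGaTgtcatccttccttctgaattgggt
Serpina1a: taaAaTgtcatccttccttctgaattgggt
Serpina1e: taaGaAgtcatccttccttctgaattgggt
Only 2 of the 30 positions differ. Over their whole overlap the Serpina1a and Serpina1c probes shared 50 of 51 bases, and the Serpina1c and Serpina1e probes 49 of 59. How far each probe also reads the RNA of its neighbours was not tested, so the paralogs are not independent of each other.

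The promoters are alike too. In RefSeq's promoter windows of GRCm38.p6 (250 bases before to 50 after the start), the 10 pairs of the 5 paralogs agreed at 91.7% to 98.4% of aligned bases. The stretches around the sequence GTTAAT, a piece of the site of the liver factor HNF1, are printed because the 5 genes move together, with that motif in capitals. They lie on the minus strand of GRCm38.p6 at Serpina1a chr12:103863625-103863700, Serpina1b chr12:103738200-103738275, Serpina1c chr12:103904962-103905037, Serpina1d chr12:103773634-103773709 and Serpina1e chr12:103956960-103957035.
Serpina1a: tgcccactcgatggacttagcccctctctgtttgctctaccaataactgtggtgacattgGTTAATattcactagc
Serpina1b: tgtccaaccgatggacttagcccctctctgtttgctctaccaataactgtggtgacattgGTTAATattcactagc
Serpina1c: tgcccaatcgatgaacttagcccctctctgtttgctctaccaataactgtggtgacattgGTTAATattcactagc
Serpina1d: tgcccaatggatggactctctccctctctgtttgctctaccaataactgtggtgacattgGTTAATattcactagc
Serpina1e: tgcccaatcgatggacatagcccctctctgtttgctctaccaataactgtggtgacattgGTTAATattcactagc
Across these 76 bases 66 positions were the same in all 5. The motif starts 21, 26, 27, 16 and 78 bases before the start of Serpina1a, Serpina1b, Serpina1c, Serpina1d and Serpina1e. Searched on both strands, GTTAAT was found in 6 of the 11 plasma serpin genes that had a RefSeq promoter, the sixth being Serpina7. It was found in 3 of 25 clade B and 1 of 9 other genes, and in 7.10% of all 32851 promoters. A gene with several promoters was counted once, while the share of all promoters counts each of them. The STAT motif TTCNNNGAA was found in 1 of 11 (Serpina11), 3 of 25 and 1 of 9, and in 8.30% of all promoters, and no member held it together with GTTAAT. The motifs TTGCNNCAA (C/EBP), CAAAGTCCA (HNF4) and the palindrome of the glucocorticoid receptor were found in no window of these 45 genes, and in 2.08%, 0.475% and 0.0578% of all promoters. A match is a description of the letters only.

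Serpina1a read 10.39, 10.58 and 10.43 in the 3 fresh arrays, 9.13, 9.03 and 9.24 at P1 day 0, 9.12, 9.04 and 9.15 in P1 uninduced and 9.45, 9.43 and 9.68 in P1 induced cells. Relative to the 75th percentile of each array it fell by 1.33 on the log2 scale on conversion (-1.33 ± 0.10 (SE), adjusted p = 4.40e-07), a drop of 2.52-fold, and the fresh arrays lay above all the others. That percentile was 291 to 332 on the fresh and 672 to 789 on the P1 day 0 arrays, and its part in the fall was not tested. After induction the 3 arrays were above the uninduced 3, but the difference stayed under 2-fold (0.41 ± 0.10 (SE), adjusted p = 0.00736). Serpina1c behaved alike, with 10.42, 10.50 and 10.43 in fresh cells, 9.03, 8.96 and 9.11 at P1 day 0, 9.04, 8.94 and 8.97 uninduced and 9.37, 9.28 and 9.51 induced. Its change on conversion was -1.42 ± 0.09 (SE), adjusted p = 6.95e-08.

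Serpina1e read 10.19, 10.29 and 10.20 in fresh cells and 8.75, 8.69 and 9.06 at P1 day 0, a change of -1.39 ± 0.12 (SE), adjusted p = 1.12e-06. It stood at 8.80, 8.72 and 8.91 in uninduced and 9.16, 9.19 and 9.45 in induced P1 cells, where it did not pass the 2-fold threshold (0.46 ± 0.12 (SE)). On the probes used here the falls of Serpina1b and Serpina1d were larger, but second probes of Serpina1a and Serpina1e fell by 2.03 and 1.63 on the log2 scale, so the paralogs are not ranked. Serpina1b went from 10.44, 10.55 and 10.49 to 8.61, 8.49 and 9.27 (-1.70 ± 0.19 (SE), adjusted p = 1.12e-05) and stayed at 8.32, 8.31 and 8.73 uninduced and 8.84, 8.71 and 8.95 induced. Serpina1d went from 9.83, 9.99 and 10.02 to 7.79, 7.55 and 8.45 (-2.02 ± 0.20 (SE), adjusted p = 3.74e-06), with 7.43, 7.42 and 7.77 uninduced and 7.91, 7.88 and 8.07 induced. None of the 5 paralogs was called between P1 induced and uninduced cells, with log2 differences from 0.38 to 0.46. The 75th percentile subtracted was 692 to 756 on the uninduced and 466 to 573 on the induced arrays. Whether such bright probes could have shown a larger rise was not tested. The size of the fall depended on the scaling: with quantile normalization Serpina1a was at 0.13 and Serpina1c at 0.04, on the other side of 0, Serpina1b at -0.20, Serpina1d at -0.89 and Serpina1e at -0.04, and none of the 5 was called.

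In late CLiPs the same 5 genes were called higher after 8 days without induction. On the day 0 arrays Serpina1a read 5.31, 6.89 and 6.85 and on the uninduced arrays 7.87, 7.49 and 7.86, a change of 1.39 ± 0.40 (SE), adjusted p = 0.0225. Serpina1b went from 3.58, 5.21 and 5.22 to 6.34, 5.81 and 6.46 (1.53 ± 0.46 (SE), adjusted p = 0.0267). Serpina1c went from 5.01, 6.63 and 6.60 to 7.66, 7.23 and 7.69 (1.45 ± 0.41 (SE), adjusted p = 0.0218). In each of these, day 0 replicate 1 was the lowest array. Serpina1d went from 2.50, 4.30 and 4.25 to 5.43, 4.97 and 5.56 (1.64 ± 0.48 (SE), adjusted p = 0.0238), and Serpina1e from 4.76, 6.37 and 6.33 to 7.42, 7.01 and 7.44 (1.47 ± 0.41 (SE), adjusted p = 0.0199). The groups did not overlap for any of the 5. These calls rest on few arrays: Serpina1a lost its call without any 1 of late day 0 replicate 1 or late uninduced replicates 1 and 3 (log2 changes 0.87 to 1.33, adjusted p 0.012 to 0.0656), Serpina1b without any 1 of late day 0 replicate 1 or late uninduced replicates 1 and 3 (log2 changes 0.99 to 1.46, adjusted p 0.0404 to 0.0811), Serpina1c without any 1 of late day 0 replicate 1 or late uninduced replicates 1 and 3 (log2 changes 0.91 to 1.38, adjusted p 0.0128 to 0.0657), Serpina1d without any 1 of late uninduced replicates 1 and 3 (log2 changes 1.52 to 1.58, adjusted p 0.0661 to 0.0732) and Serpina1e without any 1 of late day 0 replicate 1 or late uninduced replicates 1 and 3 (log2 changes 0.94 to 1.40, adjusted p 0.011 to 0.0607). The count of 9 plasma serpins became 5 without late day 0 replicate 1 and 4 without late uninduced replicate 1 or 3.

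Induction was followed by no called change in the late paralogs. The induced arrays read 7.89, 7.83 and 8.35 for Serpina1a, 6.13, 6.15 and 6.99 for Serpina1b, 7.64, 7.63 and 8.15 for Serpina1c, 5.34, 5.39 and 6.15 for Serpina1d and 7.48, 7.45 and 7.98 for Serpina1e. Replicate 3, on another slide than the other late arrays, was the highest each time. The log2 differences from uninduced cells ran from 0.22 to 0.35, with standard errors of 0.40 to 0.48, and none was called.

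**Figure D2:**
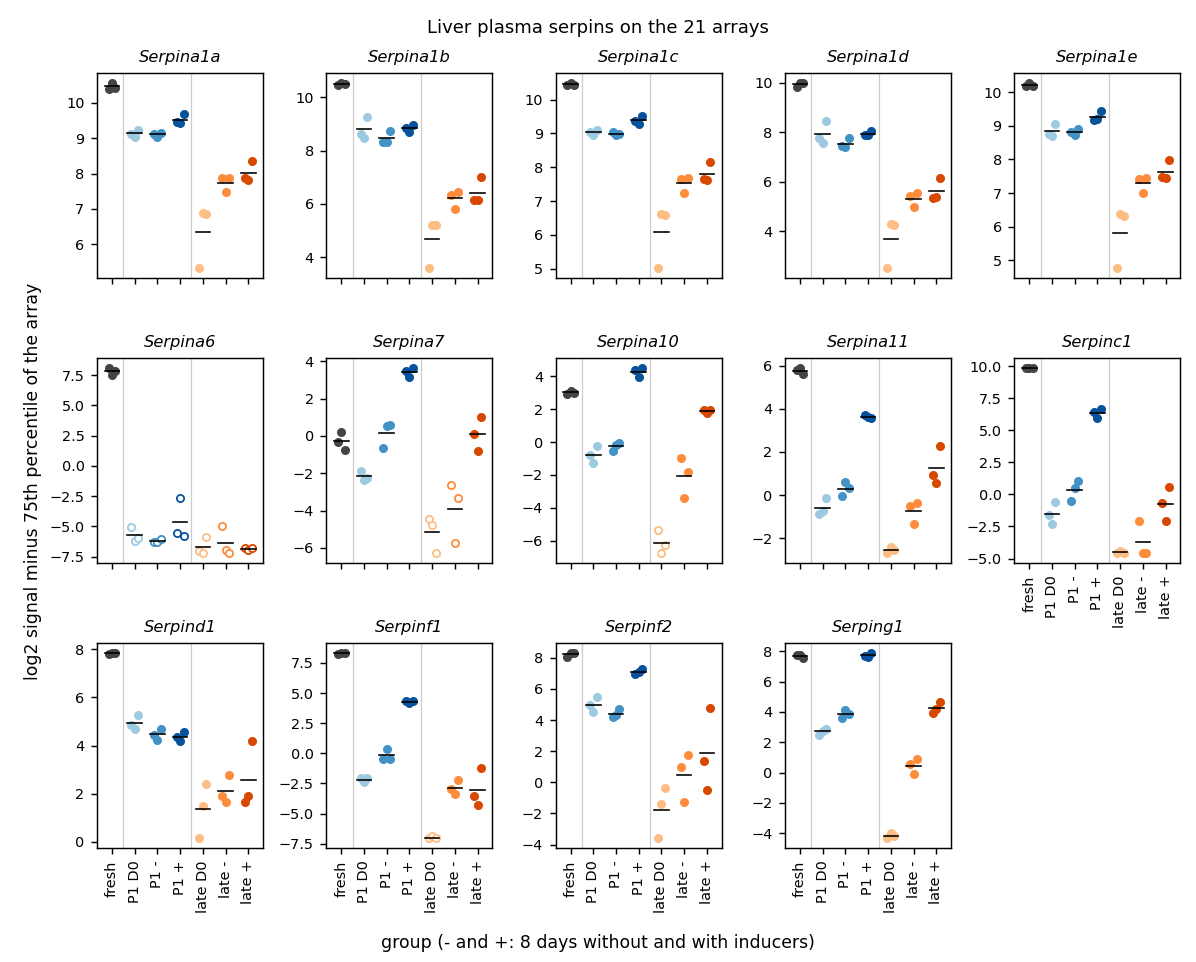
Log2 level (log2 signal minus the array's 75th percentile) of the 14 plasma serpins in the 7 groups, 1 panel per gene, with 3 points per group and a black bar at the mean; open symbols mark groups in which the probe was not well above background on all 3 arrays, and grey lines separate fresh, P1 and late arrays. Serpinc1 sits at 9.87, 9.83 and 9.88 in fresh cells and returns to 6.38, 5.93 and 6.64 in P1 induced cells.

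The inhibitors of clotting and fibrinolysis all fell on conversion, and 3 of the 4 rose again on induction in P1 CLiPs. Serpinc1 encodes antithrombin, the main inhibitor of thrombin and factor Xa. It read 9.87, 9.83 and 9.88 in fresh hepatocytes, -1.60, -2.32 and -0.60 at P1 day 0, -0.53, 0.47 and 1.06 in uninduced and 6.38, 5.93 and 6.64 in induced P1 cells. The 4 groups did not overlap, with the lowest uninduced array just above the highest day 0 array. The drop on conversion was 2644-fold (-11.37 ± 0.45 (SE), adjusted p = 1.94e-09), the rise without induction 1.84 ± 0.45 (SE), adjusted p = 0.00897, and the rise with induction over none 5.98 ± 0.45 (SE), adjusted p = 2.24e-06. Induced P1 cells remained 11.7-fold below fresh cells (-3.55 ± 0.45 (SE), adjusted p = 3.52e-05). A second Serpinc1 probe, above background on all 21 arrays, changed far less, by -1.74 on conversion and 0.45 on induction, and with the mean of both probes the rise without induction was not called (0.92, adjusted p = 0.00712).

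In late CLiPs Serpinc1 read -4.59, -4.43 and -4.55 on day 0, -2.06, -4.60 and -4.56 uninduced and -0.70, -2.09 and 0.57 induced. The uninduced and induced arrays overlapped, with uninduced replicate 1 a little above induced replicate 2. The increase on induction was called all the same (3.00 ± 0.80 (SE), adjusted p = 0.0369), but not without any 1 of late uninduced replicates 2 and 3 or late induced replicates 1 and 3 (log2 changes 2.34 to 2.98, adjusted p 0.0786 to 0.116).

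Serpina10 is the protein Z-dependent inhibitor of factor Xa. Its levels were 2.94, 3.13 and 2.96 in fresh cells, -0.78, -1.27 and -0.26 at P1 day 0, -0.55, -0.16 and -0.05 uninduced and 4.37, 3.96 and 4.53 induced. After the fall on conversion (-3.78 ± 0.24 (SE), adjusted p = 1.00e-07), induction raised it 23.3-fold over uninduced cells (4.54 ± 0.24 (SE), adjusted p = 2.26e-07), to above the fresh level on every array (1.28 ± 0.24 (SE), adjusted p = 7.15e-04). In late CLiPs it was not well above background on day 0 (-5.37, -6.77 and -6.26), stood at -0.98, -3.38 and -1.85 uninduced and 1.97, 1.78 and 1.98 induced, and the 3 groups were apart. The increase without induction was at least 6.58-fold (adjusted p = 8.03e-04), and with induction it was 3.98 ± 0.58 (SE), adjusted p = 0.00318 more. A second Serpina10 probe gave a change of 1.80 for the first of these.

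Serpind1, heparin cofactor II, which inhibits thrombin, fell and did not come back. It read 7.81, 7.82 and 7.86 in fresh cells, 4.87, 4.69 and 5.28 at P1 day 0, 4.45, 4.25 and 4.69 uninduced and 4.36, 4.17 and 4.56 induced. The fall was -2.88 ± 0.17 (SE), adjusted p = 4.24e-08, and the induced and uninduced P1 arrays overlapped (-0.10 ± 0.17 (SE), adjusted p = 0.66), with a 95% interval of the difference from -0.47 to 0.27. In late CLiPs its arrays spread widely, at 0.15, 1.496 and 2.42 on day 0, 1.91, 1.66 and 2.77 uninduced and 1.66, 1.92 and 4.17 induced, and no change was called.

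Serpinf2, alpha-2-antiplasmin, is the fast inhibitor of plasmin. Its levels were 8.06, 8.28 and 8.34 in fresh cells, 4.95, 4.52 and 5.49 at P1 day 0, 4.19, 4.32 and 4.71 uninduced and 6.95, 7.07 and 7.31 induced. It fell on conversion (-3.24 ± 0.23 (SE), adjusted p = 2.15e-07) and rose with induction (2.70 ± 0.23 (SE), adjusted p = 5.34e-06), the induced arrays lying between the fresh and the other P1 arrays. Against fresh cells the induced cells were 2.17-fold lower (-1.12 ± 0.23 (SE), adjusted p = 0.00113), a call lost with quantile normalization (-0.68, adjusted p = 0.0096) and in a fit of all 21 arrays (-1.12, adjusted p = 0.344). In late CLiPs it read -3.60, -1.38 and -0.40 on day 0, 0.99, -1.27 and 1.73 uninduced and 1.34, -0.49 and 4.79 induced. Those groups overlapped and no change was called, with a standard error of 1.43.

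The clotting enzymes, which include targets of these serpins, were measured on the same arrays. Of 12 genes listed as coagulation and contact proteases all 12 fell on conversion (median -6.89), where 25.2% of all tested genes did. On induction 10 rose (median 2.31), where 9.68% did, while among all tested genes the medians were -0.0097 and 0.049. F10, which encodes the factor X that antithrombin and Serpina10 inhibit once activated, changed by -10.72 ± 0.36 (SE), adjusted p = 6.10e-10 and then by 6.56 ± 0.36 (SE), adjusted p = 2.67e-07. Klkb1, plasma kallikrein, fell at least 998-fold. In late CLiPs 6 of 8 tested genes of the list rose without induction, where 8.19% of all tested genes did. On late induction 1 of 8 rose, where 2.94% of all tested genes did. It was Pros1, a cofactor for the breakdown of clotting factors rather than a protease (2.15 ± 0.32 (SE), adjusted p = 0.00335). The plasminogen system split: on conversion 4 of 9 genes rose and 5 fell, against 25.4% and 25.2% of all tested genes, with Plaur, the urokinase receptor, at least 449-fold higher, Plat, tissue plasminogen activator, at least 101-fold and Plau, urokinase, at least 100.2-fold. On induction at P1 Plg, plasminogen, rose (4.45 ± 0.20 (SE), adjusted p = 9.30e-08), as did Cpb2, an inhibitor of fibrinolysis (7.53 ± 0.26 (SE), adjusted p = 1.80e-08), and Plau fell (-7.51 ± 0.31 (SE), adjusted p = 4.83e-08).

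Serping1 encodes C1 inhibitor, which holds the complement proteases C1r and C1s, plasma kallikrein and factor XIIa in check. It came back to the fresh level in P1 induced cells. The arrays read 7.73, 7.73 and 7.53 in fresh cells, 2.51, 2.76 and 2.88 at P1 day 0, 3.61, 4.09 and 3.85 uninduced and 7.67, 7.63 and 7.91 induced. The fall was 30.9-fold (-4.95 ± 0.15 (SE), adjusted p = 2.45e-10), the rise without induction 1.13 ± 0.15 (SE), adjusted p = 2.34e-04, and the rise with induction over none 3.89 ± 0.15 (SE), adjusted p = 3.15e-08. Induced and fresh arrays overlapped, with a difference of 0.08 ± 0.15 (SE), adjusted p = 0.66 and a 95% interval from -0.25 to 0.40. In late CLiPs it started at -4.33, -3.98 and -4.18 on day 0, reached 0.56, -0.12 and 0.86 uninduced (4.60 ± 0.27 (SE), adjusted p = 1.29e-05) and 3.93, 4.17 and 4.68 induced (3.83 ± 0.27 (SE), adjusted p = 1.83e-04 more), and the 3 groups were apart.

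Of 7 tested proteases of the classical and lectin complement pathways 6 fell on conversion, against 25.2% of all tested genes, and 5 rose on induction at P1, against 9.68%. C1ra and C1s1, the mouse C1r and C1s that Serping1 inhibits, changed by -6.96 ± 0.15 (SE), adjusted p = 3.24e-11 and -5.02 ± 0.14 (SE), adjusted p = 1.66e-10 on conversion, and by 3.90 ± 0.15 (SE), adjusted p = 4.06e-08 and 3.04 ± 0.14 (SE), adjusted p = 1.01e-07 on induction. In late CLiPs 5 of 6 rose without induction, against 8.19% of all tested genes, and none of 6 was called on induction, against 5.99%.

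Of the serpins that inhibit no protease, the hormone carriers parted ways. Serpina6, corticosteroid-binding globulin, was lost and not regained. It read 8.13, 7.50 and 7.87 in fresh hepatocytes, and was not well above background on any array at P1 day 0 (-5.01, -6.20 and -5.93) or uninduced (-6.31, -6.29 and -6.04), and on 1 of 3 induced arrays (-5.54, -2.65 and -5.76). It was at least 3377-fold lower at P1 day 0 than in fresh cells (adjusted p = 1.32e-08). It was called lower in induced cells too (adjusted p = 4.47e-08), where no fold is given because 2 of 3 arrays were not above background. On the 9 late arrays it was not above background (-6.99, -7.21 and -5.88 on day 0, -4.95, -6.97 and -7.22 uninduced and -6.74, -6.93 and -6.80 induced) and was not tested.

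Serpina7, thyroxine-binding globulin, ended above the fresh level. The fresh arrays read -0.34, 0.19 and -0.74, P1 day 0 -1.89, -2.34 and -2.28, P1 uninduced -0.66, 0.54 and 0.56 and P1 induced 3.47, 3.14 and 3.67. The fall on conversion (-1.87 ± 0.34 (SE), adjusted p = 3.82e-04) was followed by a rise without induction (2.31 ± 0.34 (SE), adjusted p = 4.67e-04) and a further 9.74-fold with it (3.28 ± 0.34 (SE), adjusted p = 2.06e-05). Induced cells stood 13.2-fold above fresh cells (3.72 ± 0.34 (SE), adjusted p = 2.54e-06), and the induced arrays lay above all fresh arrays. In late CLiPs it read -4.48, -4.76 and -6.30 on day 0, -2.63, -5.72 and -3.34 uninduced, each above background on 2 of 3 arrays, and 0.09, -0.80 and 1.03 induced, and the induced arrays were again apart (4.002 ± 0.86 (SE), adjusted p = 0.0158).

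Serpinf1, pigment epithelium-derived factor, an anti-angiogenic protein, read 8.24, 8.36 and 8.34 in fresh cells, -2.07, -2.41 and -2.07 at P1 day 0, -0.44, 0.40 and -0.47 uninduced and 4.35, 4.15 and 4.37 induced. It fell 1444-fold (-10.50 ± 0.21 (SE), adjusted p = 1.71e-11), rose without induction (2.01 ± 0.21 (SE), adjusted p = 5.67e-05) and rose again with it (4.46 ± 0.21 (SE), adjusted p = 1.05e-07), and these 4 groups did not overlap. In late CLiPs it was not above background on day 0 (-7.05, -6.85 and -7.03), and stood at -2.98, -3.33 and -2.19 uninduced and -3.53, -4.27 and -1.20 induced. The increase without induction was at least 3.88-fold (adjusted p = 0.00185). Its 3 probes agreed on conversion (-10.50, -10.48 and -10.47) and not in that late comparison (4.14, 2.25 and -0.21), where their mean was not called (2.06, adjusted p = 0.0577).

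Serpina11, a secreted member of the clade A cluster, read 5.78, 5.91 and 5.60 in fresh cells, -0.88, -0.74 and -0.14 at P1 day 0, -0.06, 0.59 and 0.32 uninduced and 3.70, 3.61 and 3.57 induced. Its fall on conversion was -6.35 ± 0.20 (SE), adjusted p = 4.51e-10 and its rise with induction 3.35 ± 0.20 (SE), adjusted p = 5.42e-07, to arrays that stayed below the fresh ones. The late arrays read -2.70, -2.43 and -2.56 on day 0, -0.51, -1.36 and -0.38 uninduced and 0.93, 0.58 and 2.29 induced, and both steps were called (1.82 ± 0.43 (SE), adjusted p = 0.00992; 2.02 ± 0.43 (SE), adjusted p = 0.016). The second was not called without late uninduced replicate 2 (log2 change 1.71, adjusted p = 0.0527).

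Other inhibitors, receptors and liver factors were counted as a frame for the plasma serpins. Of 23 tested non-serpin protease inhibitors 12 fell and 9 rose on conversion, against 25.2% and 25.4% of all tested genes, and 13 rose and 4 fell on induction at P1, against 9.68% and 9.02%. The broad inhibitor A2m, alpha-2-macroglobulin, rose at least 5.91-fold without induction and by a further 8.69 ± 0.25 (SE), adjusted p = 9.27e-09 with it. Of 6 receptors of the list of serpin-enzyme complex receptors 2 fell on conversion, a share near the 25.2% of all tested genes, and 3 rose on induction, against 9.68%. Lrp1, which takes up serpin-enzyme complexes, changed by -3.43 ± 0.13 (SE), adjusted p = 1.49e-09 and 2.14 ± 0.13 (SE), adjusted p = 5.21e-07. Of 13 transcription factors that drive serpin and other liver promoters 8 fell and 1 rose on conversion, against 25.2% and 25.4% of all tested genes. On induction at P1 6 rose, against 9.68%, and in late CLiPs 5 rose without induction and 3 with it, against 8.19% and 2.94%. Cebpa, the liver factor C/EBP alpha, changed by -5.50 ± 0.21 (SE), adjusted p = 1.49e-09 on conversion and 1.56 ± 0.21 (SE), adjusted p = 1.42e-04 on induction, and Hnf4a, a master regulator of hepatocyte genes, by 1.31 ± 0.16 (SE), adjusted p = 8.47e-05 on induction.

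The 5 clade B6 genes on chromosome 13 rose together on conversion. Serpinb6a, whose human counterpart inhibits cathepsin G and other trypsin-like enzymes inside cells, has near copies next to it. The first 30 shared bases of 3 of their probes show how close the copies are, with the positions that differ in capitals. They lie on the minus strand of mm9 at Serpinb6c chr13:33971715-33971744, Serpinb6a chr13:34009826-34009855 and Serpinb6e chr13:33924243-33924272, and whether in a coding exon or a UTR was not analysed here.
Serpinb6c: aagtgaccttatccataaGtGCaatgAcaG
Serpinb6a: aagtgaccttatccataaGtGCaatgGcaA
Serpinb6e: aagtgaccttatccataaAtATaatgAcaG
Of these 30 positions 5 differ. Over their overlap the Serpinb6a and Serpinb6c probes shared 39 of 42 bases and the Serpinb6c and Serpinb6e probes 41 of 47, and cross-reading among them was not tested.

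Serpinb6c read 1.26, 0.52 and 0.73 in fresh cells, 6.38, 6.30 and 6.52 at P1 day 0, 6.40, 6.27 and 6.43 uninduced and 6.15, 6.17 and 6.32 induced. It rose 47.2-fold on conversion (5.56 ± 0.16 (SE), adjusted p = 2.22e-10), was not called in the later P1 comparisons, and read 6.26, 6.52 and 6.25, 6.10, 6.14 and 6.03 and 6.47, 6.74 and 6.29 in the 3 late groups. Serpinb6a rose alike (5.40 ± 0.15 (SE), adjusted p = 1.57e-10), with another probe at 5.81 and a pair of dim probes at -0.46 and -1.42. Serpinb6d was not above background on any fresh array (-5.44, -5.54 and -5.58) and read 1.03, 1.04 and 0.64 at P1 day 0, 1.24, 1.01 and 0.33 uninduced and 0.87, 0.12 and 0.27 induced. It was at least 18.3-fold higher (adjusted p = 1.66e-09), and its late arrays read 0.33, 0.57 and 0.36 on day 0, 0.10, 0.09 and 0.04 uninduced and 0.59, 0.77 and 0.34 induced. Serpinb6e was at least 4.82-fold higher (adjusted p = 4.33e-08). Fresh and P1 day 0 arrays were apart for all of them.

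Serpinb6b also changed within P1 culture. It rose on conversion (5.66 ± 0.31 (SE), adjusted p = 2.53e-08) from -2.98, -1.49 and -1.70 to 3.70, 3.67 and 3.46, rose again without induction to 4.70, 4.88 and 4.73 (1.16 ± 0.31 (SE), adjusted p = 0.0135), and was lower with induction, at 3.101, 2.86 and 3.04 (-1.77 ± 0.31 (SE), adjusted p = 8.56e-04). The uninduced arrays lay above all fresh and other P1 arrays. Markers of biliary and progenitor cells moved the same way as the B6 genes on conversion: their summed linear level went from 1.90 to 3.18 in fresh cells to 441 to 468 at P1 day 0, and all 9 were above background on every P1 day 0 array against 3 of 9 on every fresh array. Krt19, Krt7, Epcam, Cd24a and Cldn4 were above background on no fresh array. The part of these markers in the B6 changes was not tested.

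On induction at P1 the clade B9 genes moved in opposite directions, Serpinb9 down and 3 of its neighbours up. Serpinb9 is known as the inhibitor of granzyme B, the killer-cell protease. It read 0.57, 0.82 and 0.83 in fresh cells and 1.61, 2.02 and 1.07 at P1 day 0, where the increase of 0.83 ± 0.20 (SE) stayed under 2-fold. After 8 days it read 4.44, 4.48 and 4.22 without induction and 1.17, 1.40 and 1.24 with it. The uninduced arrays stood above all fresh and other P1 arrays, 7.02-fold over day 0 (2.81 ± 0.20 (SE), adjusted p = 6.04e-06) and 8.6-fold over induced cells (-3.104 ± 0.20 (SE), adjusted p = 8.46e-07). The summed linear level of the 12 Kupffer cell and macrophage markers was 12.1 to 42.4 in fresh cells and 3.61 to 4.22 on P1 day 0. It was 17.2 to 23.0 in uninduced and 8.16 to 10.3 in induced P1 cells. Few of the markers were called, however. Of 11 tested, 1 was higher without induction (median -0.13), against 6.28% of all tested genes. On induction 1 was lower (median 0.41), against 9.02%. Of these markers 2 were above background on every uninduced array, and Clec4f, Cd5l, Vsig4, Timd4, Adgre1, C1qa and C1qc on none. Their part in the changes of Serpinb9 and Serpinb6b was not tested. In late CLiPs Serpinb9 read 2.97, 2.17 and 3.07 on day 0, 2.56, 2.28 and 2.92 uninduced and 2.45, 2.41 and 2.28 induced, and neither change was called.

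Serpinb9e, Serpinb9f and Serpinb9g lie in a row farther along the same cluster. The first 30 shared bases of the Serpinb9f and Serpinb9g probes, on the plus strand of mm9 at Serpinb9f chr13:33427040-33427069 and Serpinb9g chr13:33587669-33587698, differ at the 2 positions in capitals, and the probes shared 52 of 59 bases over their overlap. Whether they lie in a coding exon or a UTR was not analysed here.
Serpinb9f: gtGcagTgagtcctctaacaaatggccatt
Serpinb9g: gtAcagAgagtcctctaacaaatggccatt
Part of their RefSeq promoters is printed because on induction at P1 the 3 genes rose while Serpinb9 fell. Without induction at P1 Serpinb9 was called higher, as the 3 genes were. The 90-base stretches lie on the plus strand of GRCm38.p6 at Serpinb9e chr13:33249508-33249597, Serpinb9f chr13:33323962-33324051 and Serpinb9g chr13:33484686-33484775, and capitals mark the 7 positions at which the 3 differ.
Serpinb9e: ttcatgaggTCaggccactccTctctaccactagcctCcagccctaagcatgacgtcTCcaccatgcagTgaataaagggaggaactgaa
Serpinb9f: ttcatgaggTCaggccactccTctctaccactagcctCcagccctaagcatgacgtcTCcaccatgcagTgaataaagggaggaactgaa
Serpinb9g: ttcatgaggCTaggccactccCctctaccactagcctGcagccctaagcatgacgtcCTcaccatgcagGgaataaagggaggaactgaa
The Serpinb9e and Serpinb9f stretches are the same at all 90 positions, and Serpinb9g matches them at 83. Over the whole promoter windows Serpinb9e matched Serpinb9f at 99.3% and Serpinb9g at 95.9% of aligned bases. The Serpinb9 promoter aligned to these over 145 to 158 bases only, with 74.7% to 76.2% alike.

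Serpinb9f was above background on 1 of 3 fresh arrays (-2.91, -3.48 and -4.22) and on no P1 day 0 array (-5.28, -4.72 and -5.76), and read -2.72, -2.43 and -3.48 uninduced and -0.56, -0.83 and -1.15 induced. It was called lower on conversion (adjusted p = 0.00162), with no bound on the size since both groups lay mostly below background. The rise without induction was at least 2.01-fold (adjusted p = 8.35e-04), and induced cells stood 4.09-fold above uninduced cells (2.03 ± 0.38 (SE), adjusted p = 0.0014), with no overlap. In late CLiPs it was above background on no day 0 array (-5.71, -5.14 and -6.39), read -1.99, -3.00 and -2.02 uninduced, at least 5.48-fold higher (adjusted p = 0.00197), and -2.81, -3.46 and -1.24 induced. Those last groups overlapped.

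Serpinb9g read -5.28, -5.39 and -5.44 in fresh cells and -6.11, -6.11 and -5.72 at P1 day 0, above background on none of them. It stood at -4.27, -3.43 and -5.24 uninduced, above background on 1 of 3 arrays, and at -1.93, -1.95 and -2.51 induced, on all 3, a rise of 2.18 ± 0.36 (SE), adjusted p = 6.49e-04. The late arrays went from -6.93, -7.16 and -6.98 on day 0 to -2.75, -3.74 and -2.46 uninduced, at least 3.49-fold higher (adjusted p = 4.81e-04), and read -3.57, -4.10 and -2.05 induced. Serpinb9e read -2.75, -5.61 and -5.66 in fresh cells, -6.28, -6.09 and -6.00 at P1 day 0, -3.08, -3.03 and -2.83 uninduced and -1.23, -1.11 and -1.51 induced. Without induction it was at least 1.88-fold higher than on day 0 (adjusted p = 0.00272), and with induction higher again (1.70 ± 0.61 (SE), adjusted p = 0.0437).

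The call of Serpinb9e on induction was lost with quantile normalization (1.79, adjusted p = 0.0879) and without any 1 of P1 uninduced replicates 1, 2 and 3 or P1 induced replicates 1, 2 and 3 (log2 changes 1.61 to 1.81, adjusted p 0.0764 to 0.102). It was called lower on conversion (adjusted p = 0.0486), but fresh replicate 1 was the only array of either group above background, so no fall could be bounded, and without that array it was not called. In late CLiPs Serpinb9e rose without induction from -5.71, -6.44 and -7.02 to -2.53, -3.29 and -2.36, at least 4.18-fold (adjusted p = 0.00165), and read -2.87, -3.90 and -1.46 induced.

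Serpinb9c was above background in late CLiPs only, on 3 uninduced and 2 induced arrays. It read -5.54, -5.62 and -5.67 in fresh cells, -6.27, -6.30 and -6.00 at P1 day 0, -4.39, -4.20 and -4.91 uninduced and -5.64, -4.92 and -5.85 induced, and in late CLiPs -5.05, -5.32 and -4.89 on day 0, -2.27, -3.59 and -2.68 uninduced and -3.78, -4.87 and -3.83 induced. The late rise without induction was at least 3.84-fold (adjusted p = 0.00207). Induced cells were lower than uninduced ones (-1.31 ± 0.39 (SE), adjusted p = 0.0496), which was not called without any 1 of late uninduced replicates 1 and 3 or late induced replicates 1, 2 and 3 (log2 changes -1.503 to -0.96, adjusted p 0.0556 to 0.138), nor with quantile normalization (-1.32, adjusted p = 0.0549).

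Serpinb1a, an inhibitor of neutrophil elastase, and its clade B1 relative Serpinb1c went down on conversion. Serpinb1a read 2.60, 3.97 and 4.05 in fresh cells, -3.53, -3.51 and -4.68 at P1 day 0, -2.28, -2.11 and -2.94 uninduced and -1.37, -1.25 and -1.48 induced. It fell 174-fold (-7.45 ± 0.42 (SE), adjusted p = 3.41e-08), and induced cells stayed 30-fold below fresh cells. Without induction it rose a little (1.46 ± 0.42 (SE), adjusted p = 0.0196), a call lost without any 1 of P1 day 0 replicate 3 or P1 uninduced replicates 1 and 2 (log2 changes 1.08 to 1.38, adjusted p 0.061 to 0.0766). Late arrays read -4.97, -5.05 and -5.07 on day 0, above background on none, -3.52, -2.92 and -2.92 uninduced, at least 3.18-fold higher (adjusted p = 6.02e-04), and -3.58, -2.94 and -2.59 induced. Serpinb1c was above background in fresh cells only (-0.73, 0.64 and 0.72), with -6.10, -6.13 and -5.87 at P1 day 0, -5.06, -5.26 and -6.03 uninduced and -5.45, -5.20 and -5.43 induced, and was at least 17.1-fold lower at P1 day 0 (adjusted p = 4.11e-08). On the late arrays it read -6.94, -6.43 and -6.95 on day 0, -6.80, -6.48 and -7.18 uninduced and -5.29, -6.92 and -6.81 induced. In the 3 fresh arrays the first replicate was the lowest for both genes.

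Serpinb1a is abundant in neutrophils, so leukocyte markers are given beside it. Of 9 neutrophil and lymphocyte markers S100a8, Ngp, Retnlg, Cd79a and Nkg7 were above background on no fresh array, and the summed level of the 9 was 11.4 to 13.3 in fresh cells and 7.36 to 7.71 at P1 day 0. The Kupffer cell markers summed to 12.1 to 42.4 in fresh cells and 3.61 to 4.22 at P1 day 0, with Clec4f, Cd5l, Vsig4, Timd4, Adgre1, C1qa and C1qc above background on no P1 day 0 array. Of 10 leukocyte serine proteases 3 were tested in the fresh and P1 arrays. Elane, neutrophil elastase, changed by -1.43 ± 0.14 (SE), adjusted p = 3.50e-06 on conversion, and Mcpt8, a mast cell and basophil protease, was at least 10.8-fold higher. Of 9 tested cysteine cathepsins, the other targets of clade B serpins, 7 fell on conversion, against 25.2% of all tested genes, with Ctss, cathepsin S, at least 30.1-fold lower. The part of the leukocyte markers in these changes was not tested.

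Among the remaining clade B genes, Serpinb8, which inhibits furin in vitro, fell on conversion (-1.82 ± 0.18 (SE), adjusted p = 4.46e-06) and stayed 4.45-fold below fresh cells after induction (-2.15 ± 0.18 (SE), adjusted p = 1.70e-06). A second Serpinb8 probe fell by 4.30 on the log2 scale. Serpinb5, maspin, a protein of epithelial cells, was above background on all P1 arrays and on no fresh array, and was at least 1.43-fold higher at P1 day 0 (adjusted p = 1.69e-04). In late CLiPs Serpinb5 read -2.04, -3.43 and -7.03 on day 0, 1.57, -1.57 and -4.28 uninduced and -0.83, -2.46 and -6.86 induced, so that arrays of 1 group differed more than the groups and neither step was called. Each replicate number went up and then down, and with that number as a block both steps were called (2.74, adjusted p = 0.00191; -1.95, adjusted p = 0.0158), which makes 2 clade B genes lower on late induction in place of 1. Its call on conversion was lost in a fit of all 21 arrays (2.83, adjusted p = 0.0923). Serpinb3c fell by 1.03 (adjusted p = 0.00128), which was under 2-fold without fresh replicates 2 and 3 or P1 day 0 replicate 1 (log2 changes -0.98 to -0.88, adjusted p 0.00565 to 0.00666). Of the 27 clade B genes 10 were above background on no array (Serpinb2, b3a, b3b, b7, b9b, b9d, b10, b11, b12 and b13). A gene that is above background in a single group could be tested only because it is high there, so the clade B counts describe the genes that were detected. With normexp background correction the calls of Serpinb3c and Serpinb5 on conversion, of Serpinb1a, Serpinb9f and Serpinb9g after 8 days without induction at P1, of Serpinb1a in late CLiPs and of Serpinb9g against fresh cells fell under 2-fold, at -0.95 for Serpinb3c and 0.78 to 0.92 for the others.

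**Figure D3:**
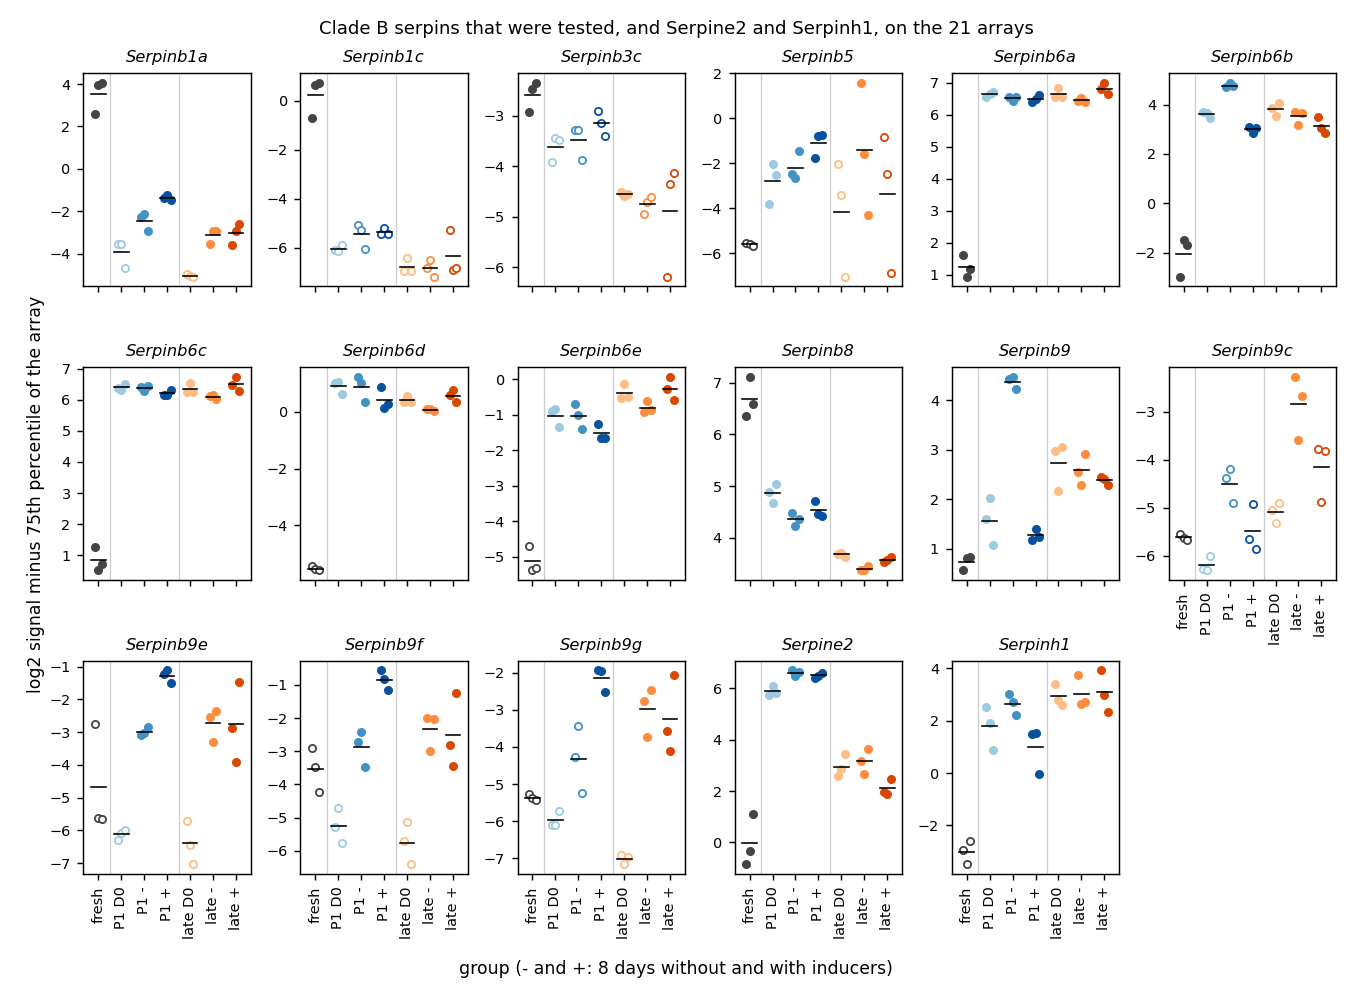
Log2 level (log2 signal minus the array's 75th percentile) of clade B and other serpins in the 7 groups, 1 panel per gene, with 3 points per group, a black bar at the mean and open symbols where the probe was not well above background on all 3 arrays of the group. Serpinb9 peaks at 4.44, 4.48 and 4.22 in P1 uninduced cells, while Serpinb9f is highest at -0.56, -0.83 and -1.15 in P1 induced cells.

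**Figure D4:**
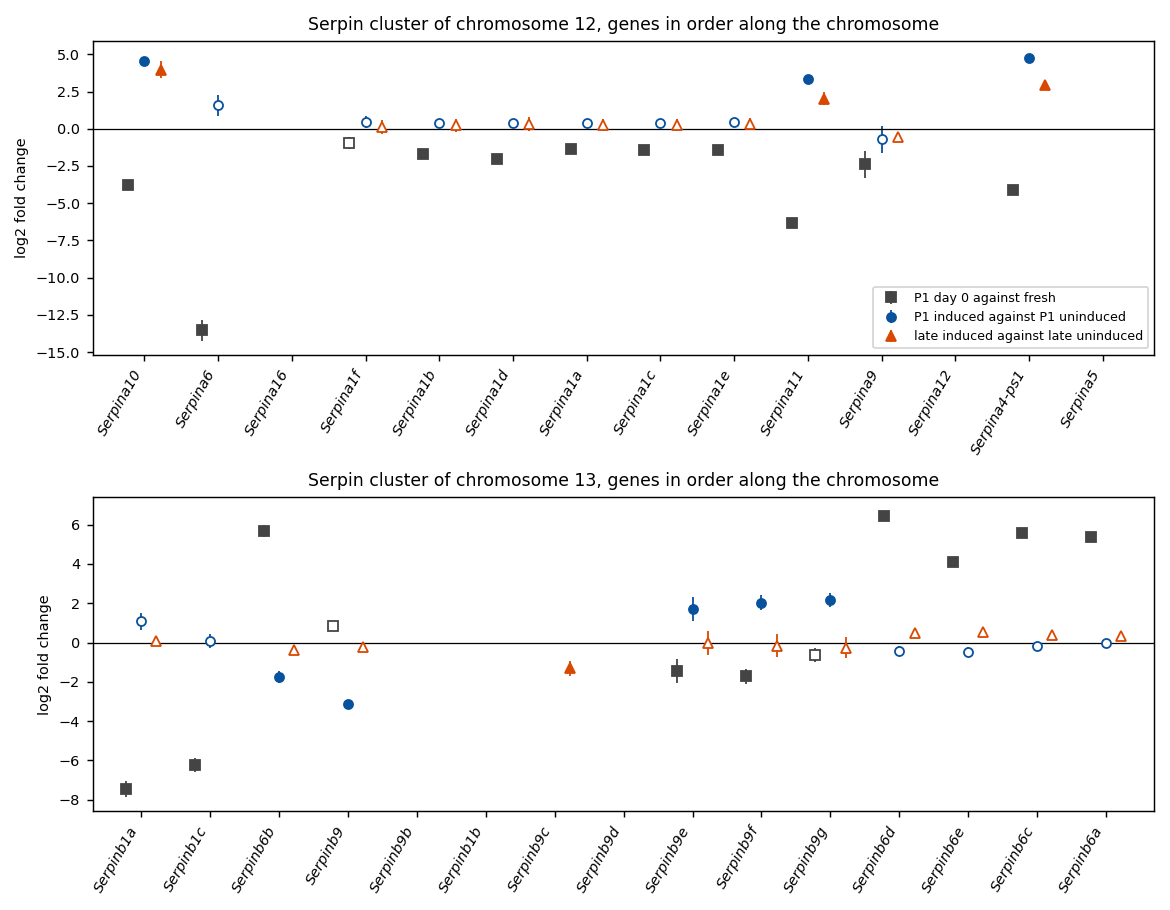
Log2 fold change with its standard error of the serpins in gene order along the chromosome 12 and chromosome 13 clusters (mm9 order of the probes), for P1 day 0 against fresh (squares), P1 induced against uninduced (circles) and late induced against uninduced (triangles); filled symbols were called. Serpinb6c at 5.56 and Serpinb1a at -7.45 show that neighbours in the chromosome 13 cluster changed in opposite directions on conversion.

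Neighbours in the gene clusters did not always change in the same direction. Of the 53 genes 14 lie on chromosome 12 and 15 on chromosome 13. On chromosome 13 Serpinb1a and Serpinb1c fell and the B6 genes rose on conversion, and Serpinb9 and Serpinb9e to Serpinb9g changed in opposite directions on induction. On chromosome 12 the tested plasma genes from Serpina10 to Serpina11 all fell on conversion, though the 5 alpha-1-antitrypsin genes were not called with quantile normalization. On induction at P1 Serpina10 and Serpina11 rose while those 5 genes between them were not called. Whether the bright probes of the 5 could have shown a larger rise was not tested. The plot of changes in gene order shows both clusters.

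Serpine2, protease nexin 1, an inhibitor of thrombin and urokinase at the cell surface, was high in all P1 CLiPs. It read -0.84, -0.33 and 1.09 in fresh cells, 5.75, 6.09 and 5.82 at P1 day 0, 6.71, 6.48 and 6.64 uninduced and 6.42, 6.49 and 6.60 induced. The rise on conversion was 60.3-fold (5.91 ± 0.37 (SE), adjusted p = 9.01e-08), and induction added nothing that was called (-0.11 ± 0.37 (SE)). Late arrays read 2.59, 2.84 and 3.42 on day 0, 3.18, 2.66 and 3.63 uninduced and 1.94, 1.90 and 2.47 induced, lower with induction (-1.05 ± 0.30 (SE), adjusted p = 0.0449). This late fall was not called without any 1 of late uninduced replicates 1 and 3 or late induced replicates 1 and 2 (log2 changes -1.04 to -0.81, adjusted p 0.107 to 0.131), nor in a fit of all 21 arrays (-1.05, adjusted p = 0.0578).

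Serpinh1, known as Hsp47, is a chaperone that binds procollagen in the endoplasmic reticulum and inhibits no protease. The fresh arrays read -2.95, -3.47 and -2.61, 1 of them above background, P1 day 0 2.53, 1.93 and 0.89, uninduced 3.01, 2.72 and 2.21 and induced 1.48, 1.54 and -0.04. It was called higher on conversion (adjusted p = 4.74e-06), and the log2 change of 4.79 ± 0.49 (SE) rests on fresh signal mostly not above background. A second, dim probe read -2.59, -4.52 and -3.32 in fresh cells and -4.64, -6.04 and -4.34 at P1 day 0. Serpinh1 was lower after induction than without it (-1.66 ± 0.49 (SE), adjusted p = 0.0186). This was not called without any 1 of P1 uninduced replicates 1 and 2 or P1 induced replicate 3 (log2 changes -1.62 to -1.14, adjusted p 0.0527 to 0.0697), nor with the mean of its probes (-0.56, adjusted p = 0.378). Its late arrays, 3.42, 2.78 and 2.61 on day 0, 3.76, 2.63 and 2.72 uninduced and 3.93, 2.97 and 2.35 induced, overlapped. Of 14 tested collagen and collagen-folding genes 10 rose and 2 fell on conversion, against 25.4% and 25.2% of all tested genes, with Col4a1, a basement membrane collagen, at 6.10 ± 0.15 (SE), adjusted p = 6.85e-11. On induction at P1 4 rose and 2 fell, against 9.68% and 9.02%, and Col4a1 changed by -1.93 ± 0.15 (SE), adjusted p = 3.16e-06. The summed level of 9 stellate cell and fibroblast markers was 12.0 to 16.1 in fresh cells, 39.1 to 58.0 at P1 day 0, 22.4 to 60.2 uninduced and 55.9 to 109 induced, and their part in the Serpinh1 changes was not tested.

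Of the other 4 tested genes, Serpina4-ps1, a pseudogene of the kallistatin gene, followed the plasma serpins. It read -1.69, -1.78 and -2.51 in fresh cells, was above background on no P1 day 0 or uninduced array, and read -1.10, -1.82 and -1.35 induced. It was at least 3.72-fold lower on conversion (adjusted p = 3.97e-08) and at least 5.96-fold higher on induction (adjusted p = 1.51e-07), and in late CLiPs at least 2.63-fold higher (adjusted p = 2.98e-04). Serpini1, neuroserpin, an inhibitor of tissue plasminogen activator, was at least 1.14-fold higher at P1 day 0 (adjusted p = 1.41e-06), with a pair of dim probes near 0. That call was lost with normexp background correction (0.15, adjusted p = 0.157) and with the mean of all probes (0.56, adjusted p = 0.0269). Serpina9, known from germinal-centre B cells, fell on conversion (-2.39 ± 0.90 (SE), adjusted p = 0.0303), a call lost without any 1 of fresh replicates 1 and 2 or P1 day 0 replicates 1 and 2 (log2 changes -2.50 to -1.77, adjusted p 0.0529 to 0.116). Serpina1f was not called in any comparison.

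Set against fresh hepatocytes, induced P1 CLiPs had lower levels of most plasma serpins and higher levels of most tested clade B serpins. Of 14 plasma serpins 9 were lower, 2 were higher and 3 (Serpina1a, Serpina1e and Serping1) were not called, with a median of -1.39. Second probes of Serpina1a (-2.09, adjusted p = 4.39e-06) and Serpina1e (-1.51, adjusted p = 2.31e-05) were called lower, unlike the probes used here (-0.95 and -0.96). With quantile normalization Serpina1b and Serpina1c were not called, at -0.64 and -0.14. In this comparison 39.1% of all tested genes were called, 20.3% higher and 18.8% lower. Serpina7 and Serpina10 were the 2 above the fresh level. Of 14 clade B serpins 9 were higher and 3 lower, with a median of 3.31 (1.98 with dim genes at their bound). Of those higher, Serpinb5, Serpinb6d, Serpinb6e and Serpinb9g were above background on no fresh array, and Serpinb9e and Serpinb9f on 1 of 3. Such genes could be tested only because they are high in CLiPs, and Serpinb1c, which was lower, only because it is high in fresh cells. With signal asked for on all arrays of every group 3 were higher and 1 lower. The 5 B6 genes were higher, at least 3.41-fold for Serpinb6e, at least 13.05-fold for Serpinb6d and 41.5-fold for Serpinb6c, and Serpinb9 did not reach 2-fold (0.53 ± 0.20 (SE)). Serpine2 was 92.3-fold higher, and Serpinh1 was called higher with 1 of 3 fresh arrays above background. Serpina9 was called lower with overlapping arrays (-2.30 ± 0.90 (SE), adjusted p = 0.0393), a call lost without any 1 of fresh replicates 1 and 2 or P1 induced replicates 2 and 3 (log2 changes -2.41 to -1.66, adjusted p 0.0662 to 0.147).

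Whether induction acts alike in P1 and late CLiPs was tested as the difference of the induction effects in a fit of all 21 arrays. Of 14 plasma serpins 2 had a smaller increase in late cells, Serpinf1 and Serpinc1, and 12 were not called, with a median of -0.14, where 9.94% of all 22353 tested genes were called (4.73% higher and 5.21% lower). Serpinf1 rose by 4.46 at P1 and changed by -0.16 in late cells, a difference of -4.62 ± 0.73 (SE), adjusted p = 3.53e-04. Serpinc1 rose by 5.98 and 3.00, a difference of -2.98 ± 0.95 (SE), adjusted p = 0.0369, which was not called without any 1 of P1 uninduced replicates 1 and 2, P1 induced replicates 1 and 3, late uninduced replicate 1 or late induced replicates 1 and 2 (log2 changes -3.05 to -2.14, adjusted p 0.06 to 0.102). On late uninduced replicates 2 and 3 Serpinc1 read -4.60 and -4.56. The lowest signal well above background on those arrays was -4.69 and -4.94, and its part in the smaller increase was not tested. With the replicate number as a block Serpina11 (-1.33, adjusted p = 0.0411) was called too, and so was Serpinh1 (1.70, adjusted p = 0.0289). For Serping1 the increases were 3.89 and 3.83 and the difference -0.06 ± 0.31 (SE), with a 95% interval from -0.73 to 0.60. For Serpina10 they were 4.54 and 3.98 (-0.56 ± 0.64 (SE), interval -1.91 to 0.79), and for Serpina7 3.28 and 4.002 (0.72 ± 0.94 (SE), interval -1.26 to 2.70).

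In clade B 3 of 15 differences were called higher and 2 lower. Serpinb9, which changed by -3.104 on induction at P1 and by -0.21 in late cells, differed by 2.90 ± 0.33 (SE), adjusted p = 2.24e-05. Serpinb6b differed by 1.38 ± 0.40 (SE), adjusted p = 0.0245 and Serpinb6e by 1.01 ± 0.32 (SE), adjusted p = 0.0371. Serpinb9f and Serpinb9g, higher on induction at P1 and at -0.17 and -0.26 in late cells, differed by -2.20 ± 0.72 (SE), adjusted p = 0.0426 and -2.44 ± 0.66 (SE), adjusted p = 0.0155, the latter with 1 of 3 P1 uninduced arrays above background. With the replicate number as a block Serpinb5 (-3.04, adjusted p = 0.00282) was called too. Leaving out arrays ended the calls of Serpinb6b without any 1 of P1 uninduced replicate 2, P1 induced replicate 2, late uninduced replicate 2 or late induced replicate 1 (log2 changes 1.20 to 1.33, adjusted p 0.0521 to 0.069), of Serpinb6e without any 1 of P1 uninduced replicates 1 and 2, P1 induced replicates 2 and 3, late uninduced replicates 1 and 3 or late induced replicates 1 and 2 (log2 changes 0.84 to 1.02, adjusted p 0.0651 to 0.101) and of Serpinb9f without any 1 of P1 uninduced replicates 1 and 3, P1 induced replicates 1, 2 and 3, late uninduced replicates 1 and 3 or late induced replicates 1 and 2 (log2 changes -2.35 to -1.72, adjusted p 0.0559 to 0.117). Passage, scanner and slide cannot be told apart here, beyond an additive difference, which cancels.

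**Figure D5:**
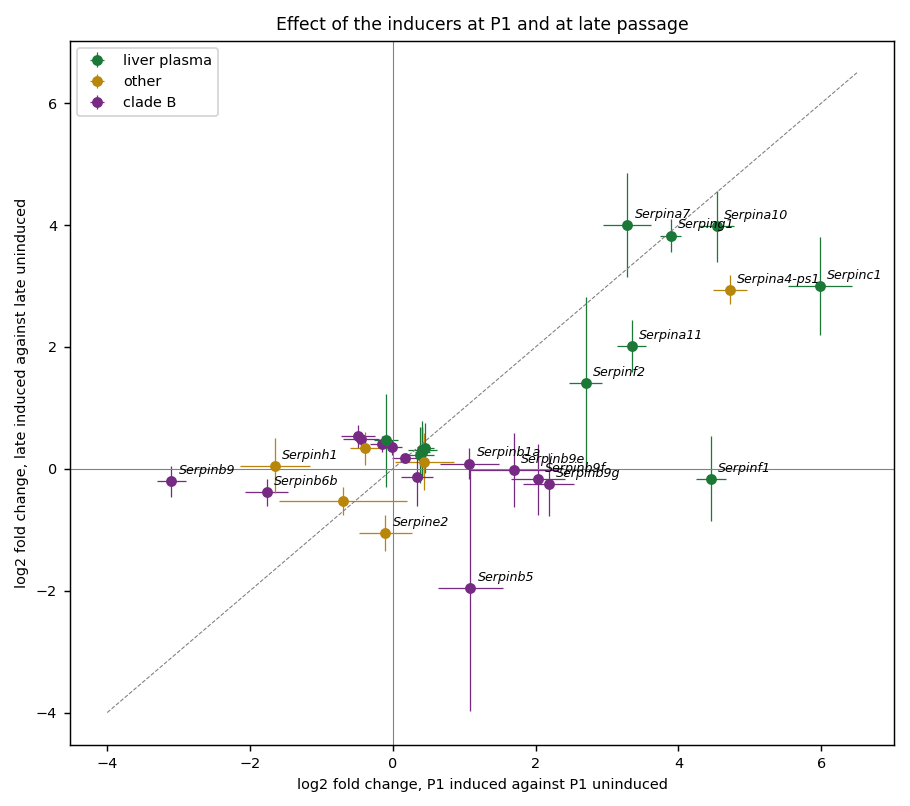
Log2 change on induction (induced against uninduced) in P1 CLiPs (horizontal) and in late CLiPs (vertical) for the serpins described here that were tested, with standard errors in both directions, coloured by class; the dashed line marks equal change, and genes beyond 1 on either axis are named. Serping1 lies near the line (3.89 and 3.83), and Serpinf1 far below it (4.46 and -0.16).

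The same was done for the 8 days without induction. The change was greater in late than in P1 cells for 4 of 14 plasma serpins, and their median difference was 1.49, where 2.85% of all tested genes were called (1.74% higher). These were Serpina10 (adjusted p = 0.00377), Serping1 (3.47 ± 0.31 (SE), adjusted p = 9.59e-06), Serpina1d (2.03 ± 0.52 (SE), adjusted p = 0.0388) and Serpina1b (1.87 ± 0.51 (SE), adjusted p = 0.0497). The size for Serpina10 is not given, since late day 0 was not above background, and with normexp background correction it was 1.40 (adjusted p = 0.0591) and not called. The last calls were near the threshold: Serpina1b lost its call without any 1 of P1 day 0 replicates 1, 2 and 3, P1 uninduced replicates 1, 2 and 3, late day 0 replicate 1 or late uninduced replicates 1 and 3 (log2 changes 1.32 to 2.02, adjusted p 0.0566 to 0.13), and Serpina1d without any 1 of P1 day 0 replicates 1 and 3, P1 uninduced replicates 1, 2 and 3 or late uninduced replicates 1 and 3 (log2 changes 1.77 to 2.14, adjusted p 0.0571 to 0.111). With the replicate number as a block Serpina1c (1.498, adjusted p = 0.0425) and Serpina1e (1.49, adjusted p = 0.0448) were called too. The plasma median lies between the values of this pair, and the paralogs Serpina1a to Serpina1e are not independent of each other. Of the 15 clade B genes Serpinb9 was called in the other direction, where 1.11% of all tested genes were called lower (-2.96 ± 0.33 (SE), adjusted p = 7.50e-05), with a rise at P1 of 2.81 and a change of -0.15 in late cells, and Serpinb9g was called higher with the block only (2.37, adjusted p = 0.0227). Beside this, the summed linear level of the hepatocyte markers was 365 to 516 on P1 day 0 and 330 to 377 uninduced, and 12.0 to 33.6 on late day 0 and 124 to 180 uninduced. Gene by gene, the difference between passages was called higher for 1 of the 12 markers and lower for none, with a median of -0.007. In late cells 2 of 10 tested markers rose without induction (median 0.65), against 8.19% of all tested genes. The part of these markers in the serpin difference was not tested.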

How the data were processed

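The data are 21 1-colour Agilent arrays of total RNA, extracted with a microRNeasy kit and labelled with Cy3 after amplification, per the labels' protocols. Per the file headers, the deposited scanner files hold a processed intensity per spot, background-subtracted and detrended by Feature Extraction (11.5.1.1, and 10.7.3.1 on the late arrays), without scaling between arrays. The authors' deposited tables hold log2 values that equal those computed here up to a constant per array (56605 probes) or are also centred per probe (40786 probes). Differences from them agreed within 0.00134. The scale and centring of these tables were found from the values, and no direction is involved in a 1-colour level.

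From the intensities, spots of a probe were averaged, log2 was taken and each array's 75th percentile subtracted. Of the 72 serpin probes 62 had an accession found in RefSeq, all with the same symbol, and 15 genes had several probes. The probe with the highest mean stood for a gene. Fits used limma 3.58.1 (lmFit, eBayes) in R 4.3.3, with Benjamini-Hochberg adjustment over all tested genes: 20631 in the 12 fresh and P1 arrays, 21342 in the 9 late arrays and 22353 in all 21, the last for the differences between passages. The fits were tested on simulated data. No spot of a serpin probe was saturated, and the number of arrays limits the precision.

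Groups come from the labels. The label of fresh replicate 3 also carries passage P1, and it was kept as fresh by its title. The labels do not say whether replicates are separate cultures, so the p-values cover the spread among these arrays only, which may be technical. Deviations of same-numbered arrays correlated above 0.1 in all 3 pairs for P1 uninduced against day 0, late uninduced against day 0 and late induced against uninduced (0.21 to 0.55), and not in the other comparisons. The replicate block was therefore read as pairing in those comparisons.

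The members and lists were chosen with earlier results of these data known. Every member could be named, but 1 item is not reported here. Values of every array are given for the plasma serpins, Serpine2, Serpinh1 and, per comparison, the 3 clade B genes with the largest called change, and up to 3 called genes per related list are named. Alternatives were quantile normalization, normexp (offset 50) on median signals, the mean of all probes, other filters, replicate or slide as a block, 1 fit of all arrays and leaving out each array. Within-slide values were added after seeing the data. Promoter sequences are RefSeq's, of GRCm38.p6 (45 of 53 members), probe positions are mm9 per the file headers, and Biopython 1.88 aligned the promoters.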

Additional observations from a re-analysis of the deposited data

Results flagged for a closer look

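The results here stand out because the change of a serpin differed between late and P1 CLiPs in a test of the difference itself. For the effect of induction, the late minus P1 difference on the log2 scale was -4.62 for Serpinf1, -2.98 for Serpinc1, -2.44 for Serpinb9g (1 of 3 P1 uninduced arrays above background) and -2.20 for Serpinb9f, whose increase with induction was smaller in late cells. It was also called for Serpina4-ps1 (-1.79), but the uninduced cells of both passages were below background there, so that both increases are bounds and the value shows no smaller increase. Serpinc1 was near the background limit on late uninduced replicates 2 and 3, and the part of that limit was not tested. The difference was 2.90 for Serpinb9, 1.38 for Serpinb6b and 1.01 for Serpinb6e. For the 8 days without induction it was 3.55 for Serpina10, 3.47 for Serping1, 2.03 for Serpina1d and 1.87 for Serpina1b, and -2.96 for Serpinb9. The Serpina10 value rests on late day 0 signal that was not above background, so it is not a size, and with normexp background correction it was 1.40 (adjusted p = 0.0591) and not called. A second Serpina10 probe read -2.45, -2.32 and -1.87 on P1 day 0 and -1.89, -1.05 and -1.10 in P1 uninduced cells. On the late arrays that probe read -4.77, -4.71 and -4.67 on day 0 and -2.10, -3.63 and -3.03 uninduced, a smaller contrast between passages. Serpinb9 was thus called in both tests, in opposite directions, because P1 uninduced cells enter both with opposite signs and are the group in which its level was highest. Scanner, slide and passage cannot be told apart in these differences beyond an additive shift.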

How the results depend on the processing

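Of the 121 calls of single serpins, quantile normalization kept 109 with their direction and side of the threshold, normexp background correction 108, the mean of all probes 112, no filter on dim probes 109, the replicate block 119, slide as a random block 117, and a fit of all 21 arrays 103 of 108. Asking for signal above background on all arrays of every group kept all 67 calls it could test. Leaving out 1 array kept 704 of 804. The direction was reversed in 2 cases, Serpina1a (0.13) and Serpina1c (0.0392) on conversion with quantile normalization. The cause was not tested, apart from the filters, which change the genes tested. Quantile normalization also took the plasma serpins called lower on conversion from 14 to 9. The largest absolute median change of all tested genes in any comparison was 0.13 with quantile normalization, 0.17 with normexp and 0.57 with no filter, against 0.049 in the main fits.

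The filter on every group left 3 clade B serpins higher and 1 lower on conversion (6550 genes called in all), 2 higher at P1 without induction (1062 in all), 0 higher on P1 induction (1937 in all), 3 higher and 1 lower in P1 induced against fresh cells (4611 in all) and 0 higher in late CLiPs without induction. It also left 3 plasma serpins higher on late induction. In the difference of induction effects it left 1 plasma and 0 clade B serpins lower (1070 in all), and in that of the uninduced changes 2 clade B serpins lower (265 in all). With normexp 3 clade B serpins were higher at P1 without induction and 2 lower in the difference of uninduced changes. The 1 clade B serpin lower on late induction became 0 with quantile normalization, normexp, the mean of all probes, no filter or the filter on every group. Without a filter the difference of induction effects had 1 plasma and 1 clade B serpin lower, and that of uninduced changes 2 plasma serpins higher. With slide as a random block the latter had 8 plasma serpins higher, and 1 clade B serpin higher and 2 lower.

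With the replicate number as a block 2 clade B serpins were lower on late induction and 1 higher in the difference of uninduced changes. The block ended the calls of Serpinb9e on conversion (-1.45, adjusted p = 0.0552, limma) and on P1 induction (1.70, adjusted p = 0.0517), and added Serpinb5 on P1 induction (1.09, adjusted p = 0.0468). Beside these and the calls given with the late changes and the differences between passages, it altered no other call.

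Leaving out 1 array at a time gave 4 to 10 plasma serpins higher in late CLiPs without induction, 3 to 5 on late induction (3 without late uninduced replicate 2) and 0 to 1 clade B serpins lower there. In the difference of induction effects it gave 1 to 3 plasma serpins lower, 1 to 5 clade B serpins higher and 1 to 2 lower. In that of uninduced changes it gave 2 to 7 plasma serpins and 0 to 1 clade B serpins higher. Of the 53 genes 17 could not be tested because their signal was not well above background on all arrays of any group.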

Other observations

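Serpins that no comparison could use still gave signal on single arrays. Serpinb1b, a close relative of Serpinb1a, was above background on 2 of 3 P1 uninduced arrays and 1 late uninduced array, and read -3.47, -3.20 and -3.95 in P1 uninduced cells, against -6.09, -6.13 and -5.88 at P1 day 0 and -5.46, -5.90 and -5.72 in P1 induced cells. Serpina5, protein C inhibitor, was above background on 1 array each of P1 induced, late uninduced and late induced cells, and read -4.01, -3.33 and -4.40 in P1 induced cells, against -6.41, -6.37 and -6.11 uninduced. Serpinb3d was above background on 1 fresh, 1 P1 uninduced and 1 late day 0 array, and Serpine3 on 1 late uninduced array. Serpina12, Serpina16 and Serpini2 were above background on none of the 21 arrays.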
